A study of Homo sapiens with 2 samples.

Results

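The 43 genes described here encode lysosomal enzymes, lysosomal membrane proteins, the transcription factors of the TFEB family and 3 autophagy proteins. They were taken by gene name from a list, with no threshold on their values, out of the 58735 genes of the deposited tables. The samples were 2 RNA-seq libraries of PLC8024, a hepatocellular carcinoma line that the labels call Alexander cells, a name otherwise used for PLC/PRF/5, with 1 library of untreated wildtype cells (MAEL WT) and 1 library of MAEL knockout cells (MAEL KO). The knockout was made with an all-in-one plasmid carrying Cas9 and an sgRNA to MAEL, after which cells were sorted by mCherry and grown as single clones. Whether the knockout library came from 1 clone is not given in the sources used here. The labels call the wildtype cells untreated, whereas the study's text on an assay of such cells calls WT a nontarget control. The labels give both libraries the same tissue and line and name no further allele or treatment.

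Lysosomes are acidic organelles in which hydrolases break down proteins, glycans and lipids delivered by endocytosis and autophagy. The hydrolases work at the low pH that the V-ATPase proton pump maintains. TFEB and its relatives TFE3 and MITF are basic helix-loop-helix factors that enter the nucleus when mTORC1 is inactive and bind a palindromic E-box, the CLEAR element, near the start sites of many lysosomal and autophagy genes. Hepatocytes are rich in lysosomes and rely on autophagy during fasting.

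Total counts were 19904136 in MAEL WT and 20833332 in MAEL KO, and mitochondrial genes took 4.42% and 4.95% of them. MAEL had 1 count in MAEL WT and 0 in MAEL KO, so the labels could not be checked by the targeted gene. All 10 hepatocyte markers examined were measured, with summed levels of 14020 and 27095 CPM, that is, counts scaled to a common library total, and all 10 were higher in MAEL KO. Of 10 macrophage and leukocyte markers 3 had at least 10 counts in a library, with sums of 68.9 and 37.2 CPM. The sums came mainly from LYZ (1251 and 737 counts), and CD163 had 52 and 11 counts and ITGAM 50 and 21. PTPRC had 3 and 0 counts and CD5L, MARCO and VSIG4 none. Fibroblast and stellate cell markers summed to 15.5 and 8.78 CPM, with ACTA2 at 0. PDGFRB (122 and 29 counts), COL1A1 (92 and 11) and LRAT (33 and 6) were lower in MAEL KO. COL3A1 (54 and 136) was higher. Endothelial markers summed to 18.4 and 19.5 CPM, mainly from PECAM1 (348 and 392 counts). The part of other cells in the results below was not tested, and in such bulk libraries fewer cells of a type cannot be told apart from less RNA per cell.

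The fold changes below compare counts after TMM scaling, which corrects library size for differences in composition, with 1 added to each normalized count. They are given as log2 of MAEL KO over MAEL WT. The range in brackets is the 95% interval from the exact Clopper-Pearson limits of the MAEL KO share of a gene's counts, and it covers counting error only. With 1 library per condition no difference has a replicate check and no p-value is given.

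More of the 43 genes were lower than higher in the MAEL KO library. All 43 passed the filter of 10 counts in either library. Of them 30 lay below and 13 above 0, whereas 52.0% of the 17887 genes that passed were below 0 and 48.0% above. Their median was -0.30 on the log2 scale, beside -0.04 for all genes tested. Scaling by total counts alone gave 38 genes below and 5 above 0 and moved the median of all genes to -0.31, with 65.4% of them below 0. The counting interval lay wholly below 0 for 28 of the 43 genes and wholly above it for 9, beside 34.7% and 34.8% of all genes. The 43 genes together took 1.08% of the counts in MAEL WT (exact 95% interval 1.07% to 1.08%) and 0.655% in MAEL KO (0.652% to 0.659%). These are shares of total counts, without TMM scaling, and a few highly counted genes weigh most in them. SQSTM1 alone took 0.279% in MAEL WT and 0.119% in MAEL KO, and PSAP 0.150% and 0.0775%.

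The differences were moderate in size. A log2 fold change below -1, past a factor of 2, was found for 8 of the 43 genes, beside 16.5% of all genes. None of the 43 was above 1, a fold passed by 10.2% of all genes. The study called genes by a log2 fold change of 2 together with a limit on the adjusted p value, and only the fold change was applied here. Past that fold change only CTSO was lower, beside 5.64% of all genes, and none was higher, beside 2.16%. The 8 genes below -1 were CTSO, TFEB, IDS, MITF, CTSL, MAP1LC3B, SMPD1 and IDUA, which come from 5 of the role groups described below, and their share was near the background.

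Among better covered genes, the 12023 with at least 100 counts, the members stood lower relative to the rest. Of the 41 members there, 28 were below 0 beside 45.8% of these genes, and 13 above 0 beside 54.2%. The counting interval lay below 0 for 26 beside 36.1%, and above 0 for 9 beside 45.1%. The median of the 41 was -0.25 and that of all 12023 was 0.067, so the bulk of these genes lay slightly above 0 while the members lay below it. Below -1 were 6 members beside 9.16%, and above 1 none beside 9.23%. Past -2 or 2 there were 0 members, beside 2.35% and 1.54%.

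**Figure D1:**
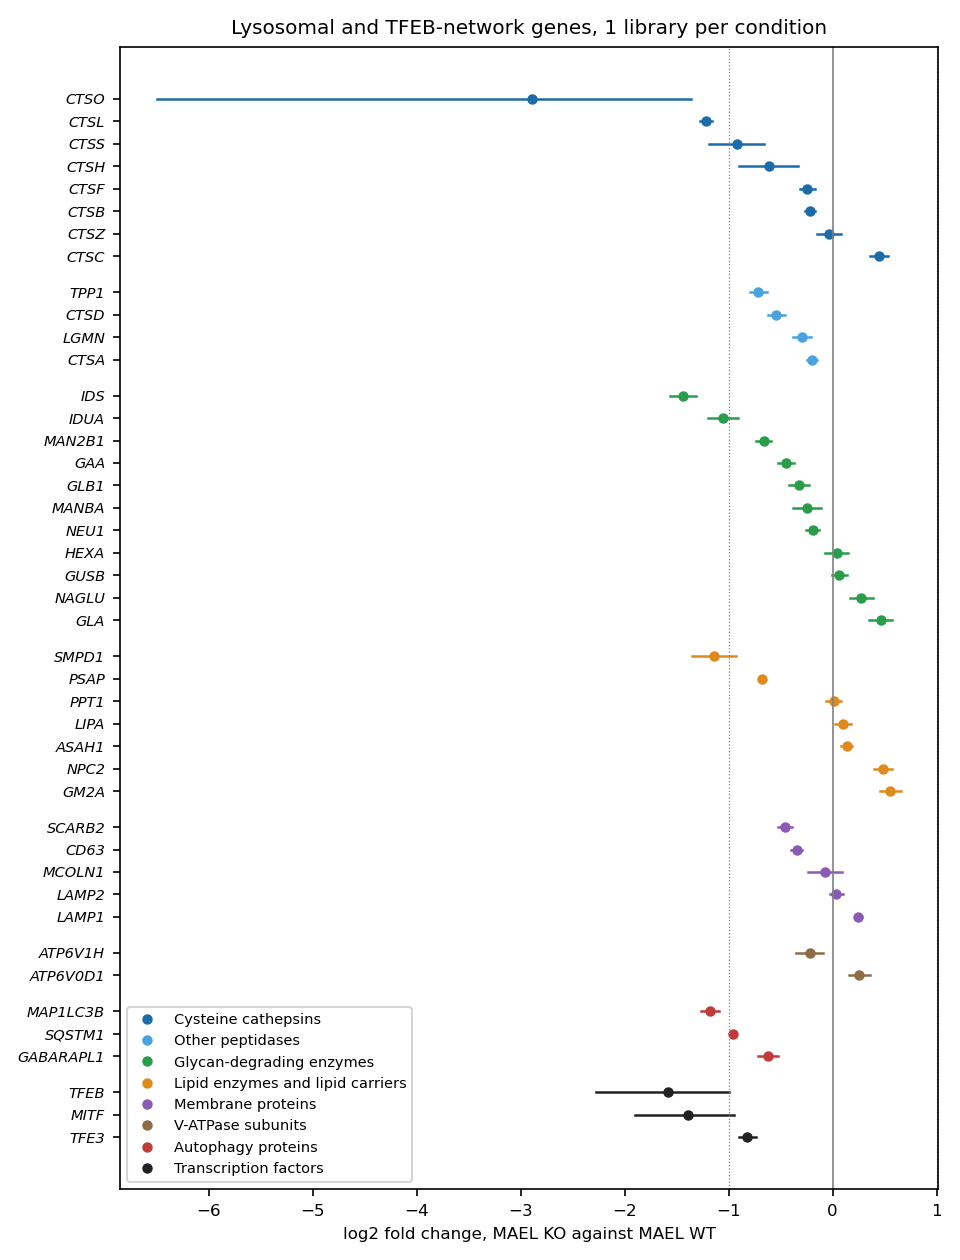
Log2 ratio of MAEL KO to MAEL WT (x axis) for the 43 genes (y axis, grouped and coloured by role). Points are fold changes of 1 library against 1, bars are 95% counting intervals, and dotted lines mark -1 and, at the right edge, 1. The transcription factors and autophagy proteins all lie to the left of 0, from -0.62 to -1.58, and CTSO, with 2 counts in MAEL KO, has the widest bar.

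The E-box bound by TFEB was looked for in the promoters, since it is the sequence that joins many of these genes. RefSeq promoter sequences (GRCh38.p14, 250 bases before to 50 after a start site) were matched by symbol for 32 of the 43 genes. The others were ASAH1, ATP6V1H, CTSB, CTSO, CTSS, HEXA, LAMP2, LGMN, MANBA, NAGLU and PSAP. The motif CACGTG, which reads the same on both strands, was present in 9 of the 32 promoters (28.1%), beside 7.43% of all 27305 promoters and 1142 of the 11398 promoters of tested genes. The longer TCACGTGA, which contains it, was present in 5 (15.6%), beside 1.04% of all promoters and 1.83% of those of tested genes. The same letters with G before and C after them were present in 2 (6.25%), beside 0.381% and 0.763%. The list holds textbook TFEB targets, so these shares describe the choice of genes.

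The following stretches show the motif in its place, in capitals, 5′ to 3′ on the strand of the gene. The last copy shown in MCOLN1 and both copies in GAA lie within the longest form, with gt before and ac after the capitals, and LAMP1 carries a run of 4 copies. The first base of the first copy lies 41 bases before the start site in MCOLN1, 76 in GAA, 192 in LAMP1, 42 in CTSA, 59 in ATP6V0D1, 47 in CTSD and 126 in NEU1.
MCOLN1, chr19:7522561-7522623, plus strand: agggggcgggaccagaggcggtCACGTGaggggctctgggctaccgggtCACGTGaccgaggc
GAA, chr17:80101483-80101577, plus strand: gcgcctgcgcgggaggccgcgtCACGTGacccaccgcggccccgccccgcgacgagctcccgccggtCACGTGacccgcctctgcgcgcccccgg
LAMP1, chr13:113297025-113297124, plus strand: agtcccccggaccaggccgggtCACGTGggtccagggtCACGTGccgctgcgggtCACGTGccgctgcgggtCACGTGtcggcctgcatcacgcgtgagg
CTSA, chr20:45891271-45891334, plus strand: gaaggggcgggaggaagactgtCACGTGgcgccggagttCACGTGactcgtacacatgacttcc
ATP6V0D1, chr16:67481189-67481238, minus strand: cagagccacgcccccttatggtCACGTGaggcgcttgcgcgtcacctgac
CTSD, chr11:1763947-1763996, minus strand: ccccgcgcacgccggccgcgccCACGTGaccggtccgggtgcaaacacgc
NEU1, chr6:31862920-31862969, minus strand: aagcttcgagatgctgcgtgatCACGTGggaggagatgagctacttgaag

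The genes with the motif were not those with the largest differences. The 9 genes, which also include CD63 and CTSF, ranged from -0.54 (CTSD) to 0.26 (ATP6V0D1) around a median of -0.20 on the log2 scale, and none was below -1. Of the 23 genes without the motif in this window, 7 were below -1, the median was -0.62 and the range reached from -1.58 (TFEB) to 0.56 (GM2A). Over all tested genes with a promoter, the medians were 0.05 for the 1142 with CACGTG and 0.01 for the 10256 without it. Below -1 were 144 of the 1142 and 1379 of the 10256. The difference between the 2 sets of members was not tested. For comparison, the 100 bases before the start site hold no CACGTG in IDS, CTSL and MAP1LC3B, 3 members with ample counts that lie below -1. These letters say nothing about other start sites or about binding.
IDS, chrX:149505307-149505406, minus strand: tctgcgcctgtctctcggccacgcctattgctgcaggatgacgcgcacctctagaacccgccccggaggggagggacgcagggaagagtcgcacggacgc
CTSL, chr9:87726019-87726118, plus strand: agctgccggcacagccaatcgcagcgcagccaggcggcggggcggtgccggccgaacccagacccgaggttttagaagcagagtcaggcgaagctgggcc
MAP1LC3B, chr16:87392236-87392335, plus strand: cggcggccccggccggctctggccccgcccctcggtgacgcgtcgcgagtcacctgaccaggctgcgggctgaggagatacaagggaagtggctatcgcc

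**Figure D2:**
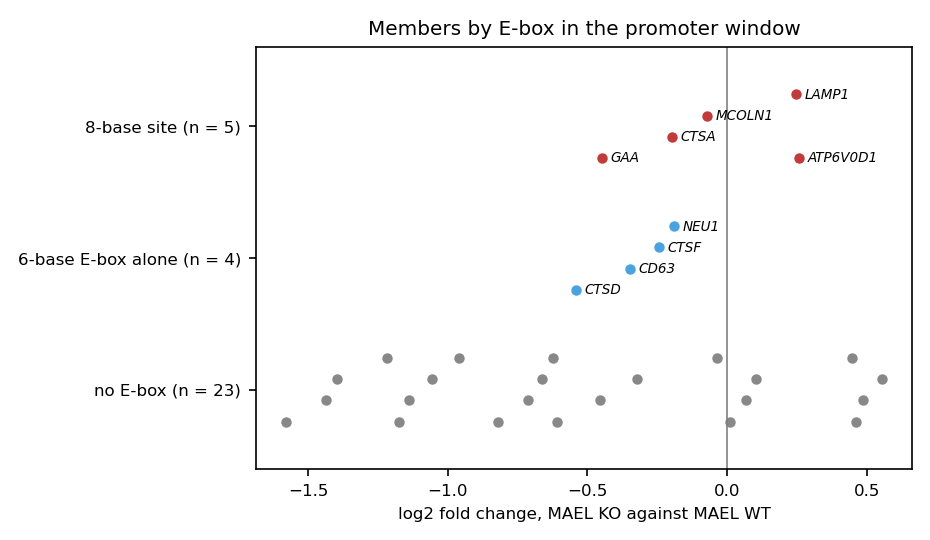
Log2 ratio of MAEL KO to MAEL WT (x axis) for the 32 genes with a RefSeq promoter, in 3 rows by the E-box found there, namely none, the 6-base E-box alone, or its 8-base form. Each point is a gene, placed at several heights only to keep points apart, and the 9 genes with an E-box lie between -0.54 and 0.26.

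All 3 transcription factors were lower in MAEL KO. TFEB, the factor after which the network is named (chr6:41683978-41736259, minus strand, GRCh38 as for all coordinates here), had 99 counts in MAEL WT and 28 in MAEL KO, a log2 fold change of -1.58 (-2.27 to -0.99). MITF, best known from melanocytes, where it drives pigment genes, had 157 and 51 counts, a log2 fold change of -1.40 (-1.90 to -0.95). TFE3 (chrX:49028726-49043486, minus strand), a close relative that shares many targets with TFEB, had 3702 and 1813 counts, a log2 fold change of -0.82 (-0.90 to -0.74). The factors differed more in level than in fold change. Per length, TFE3 was at 39.5 and 22.3 FPKM, TFEB at 0.80 and 0.26 FPKM and MITF at 1.00 and 0.37 FPKM, so that TFE3 was 49.3 times as high as TFEB in MAEL WT and 85.4 times in MAEL KO. TFEC, the remaining relative, had 0 and 1 counts.

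The autophagy proteins were lower as well. SQSTM1 encodes p62, which carries ubiquitinated cargo to the autophagosome, and is also known as a target of stress responses. The gene (chr5:179806398-179838078, plus strand) had 55582 counts in MAEL WT and 24697 in MAEL KO, a log2 fold change of -0.96 (-0.98 to -0.94), and its share of all counts was 0.279% (0.277% to 0.282%) and 0.119% (0.117% to 0.120%). MAP1LC3B encodes LC3B, a ubiquitin-like protein that is joined to the autophagosome membrane. It had 3925 and 1502 counts, a log2 fold change of -1.17 (-1.26 to -1.09). Its near copy MAP1LC3B2, with which it can share reads, had 153 and 57 counts, a log2 fold change of -1.20. GABARAPL1, of the same family of membrane-joined proteins, had 2570 and 1442 counts, a log2 fold change of -0.62 (-0.72 to -0.53). These 3 genes together took 0.312% of all counts in MAEL WT and 0.133% in MAEL KO, the largest loss of share among the 8 role groups.

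Of the 8 cysteine cathepsins, peptidases that degrade proteins in the lysosome, 7 were below 0 and 1 above. CTSL (chr9:87725519-87731393, plus strand) is a broadly expressed endopeptidase. It had 8580 counts in MAEL WT and 3189 in MAEL KO, a log2 fold change of -1.22 (-1.28 to -1.16). Its paralog CTSV went the other way, with 501 and 955 counts and a log2 fold change of 1.14 (0.98 to 1.30). CTSS, an endopeptidase best known from antigen-presenting cells, had 380 and 173 counts, a log2 fold change of -0.92 (-1.19 to -0.66), beside the low leukocyte markers given above. CTSO had 24 and 2 counts, a log2 fold change of -2.89 (-6.50 to -1.36) that rests on very few reads. CTSC, the dipeptidyl peptidase that activates serine proteases of immune cells, was the only higher one, with 1876 and 2210 counts and a log2 fold change of 0.45 (0.36 to 0.54). Of the other 4, CTSH lay farthest from 0. CTSB, which can act as an endopeptidase and as a dipeptidase of chain ends, had 8288 and 6153 counts, at -0.22 (-0.27 to -0.17). CTSF, which also takes part in processing the class II invariant chain, had 3850 and 2809 counts, at -0.24 (-0.32 to -0.17). CTSH, an aminopeptidase, and CTSZ, a carboxypeptidase, were apart from each other in size. CTSH was at -0.61 (-0.90 to -0.33), with 290 and 164 counts, and CTSZ at -0.04 (-0.15 to 0.08), with 1381 and 1165 counts.

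The other 4 peptidases were all below 0. TPP1, which removes tripeptides from the ends of proteins, had 3459 and 1822 counts, a log2 fold change of -0.71 (-0.80 to -0.63). CTSD, the main aspartic protease of lysosomes, had 3128 and 1857 counts, a log2 fold change of -0.54 (-0.63 to -0.46). LGMN, which cuts after asparagine, had 2562 and 1804 counts, at -0.30 (-0.38 to -0.21). CTSA, a carboxypeptidase that also protects the enzymes GLB1 and NEU1, was at -0.20 (-0.25 to -0.15), with 7238 and 5460 counts, and its partners lay close by. GLB1, the beta-galactosidase, was at -0.32 (-0.42 to -0.23) and NEU1, the sialidase, at -0.19 (-0.25 to -0.13).

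Among the 11 glycan-degrading enzymes 7 were below 0 and 4 above it, around a median of -0.25, and with total counts 9 were below and 2 above it. IDS and IDUA, which act in the first steps of heparan and dermatan sulfate breakdown, were the lowest. IDS (chrX:149476990-149521096, minus strand) had 2195 and 701 counts, a log2 fold change of -1.44 (-1.56 to -1.31). IDSP1, its pseudogene, had 0 and 1 counts, and the 11 tested genes with a start within 1 Mb of IDS had a median of -0.74, with 9 of them below 0. IDUA had 1323 and 550 counts, a log2 fold change of -1.05 (-1.20 to -0.91). SLC26A1, which overlaps IDUA on the opposite strand, had 810 counts in MAEL WT and 1463 in MAEL KO, which is 1.06 on the log2 scale, and without a stated strand setting the reads of the pair cannot be told apart. NAGLU, a later enzyme of heparan sulfate breakdown, was in contrast at 0.28 (0.17 to 0.39), with 1364 and 1429 counts, or 0.0013 with total counts. GLA, the alpha-galactosidase, was the highest of the group, with 1300 and 1548 counts and a log2 fold change of 0.46 (0.35 to 0.57). Both mannosidases were lower, MAN2B1 with 4189 and 2285 counts, at -0.66 (-0.74 to -0.59), and MANBA with 1139 and 830 counts, at -0.25 (-0.38 to -0.12). GAA, which degrades glycogen, had 3814 and 2418 counts, at -0.45 (-0.52 to -0.37). The difference was within counting error for HEXA, a subunit of the hexosaminidase that acts on GM2, and for GUSB, the beta-glucuronidase. HEXA had 1414 and 1256 counts, at 0.04 (-0.07 to 0.15), and GUSB 3024 and 2737 counts, at 0.07 (-0.01 to 0.14). With total counts they lay at -0.24 and -0.21.

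The 7 lipid enzymes, activators and carriers were mixed, with 5 above and 2 below 0 and a median of 0.10. With total counts 2 were above and 5 below 0, and the median was -0.17. SMPD1, the acid sphingomyelinase, had 643 and 252 counts, a log2 fold change of -1.14 (-1.36 to -0.93). PSAP, the precursor of the saposins that present sphingolipids to their hydrolases, had 29867 and 16140 counts, a log2 fold change of -0.68 (-0.71 to -0.65). The 16 tested genes with a start within 1 Mb of PSAP had a median of -0.72, with 13 below 0, close to PSAP itself. The other carriers were higher in MAEL KO. GM2A, which lifts the ganglioside GM2 from membranes, had 1401 and 1780 counts, a log2 fold change of 0.56 (0.45 to 0.66). NPC2, which hands cholesterol to NPC1, had 1906 and 2307 counts, a log2 fold change of 0.49 (0.40 to 0.57). ASAH1 and LIPA, the acid ceramidase and acid lipase, were at 0.13 and 0.10 with intervals above 0, and with total counts at -0.14 and -0.17. PPT1, which removes palmitate from proteins, had 3516 and 3058 counts, at 0.01 (-0.06 to 0.08), or -0.27 with total counts.

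The membrane proteins and pump subunits differed least. LAMP1, a heavily glycosylated protein that lines the membrane, had 13596 and 13945 counts, a log2 fold change of 0.25 (0.21 to 0.28), which was -0.029 with total counts. LAMP2, which is needed for fusion with autophagosomes, was at 0.04, or -0.24 with total counts, and MCOLN1, the calcium channel that signals to TFEB through calcineurin, at -0.07, and both intervals included 0. PNPLA6, which overlaps MCOLN1 on the same strand, had 2259 and 904 counts. CD63, a tetraspanin, and SCARB2, the sorting receptor of glucocerebrosidase, were lower. CD63 had 8274 and 5624 counts, at -0.35 (-0.40 to -0.30), and SCARB2 4523 and 2849 counts, at -0.46 (-0.52 to -0.39). Of the V-ATPase subunits, ATP6V0D1, of the membrane sector, was at 0.26 (0.15 to 0.36), or -0.017 with total counts, and ATP6V1H, of the sector that splits ATP, at -0.22 (-0.35 to -0.09).

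**Figure D3:**
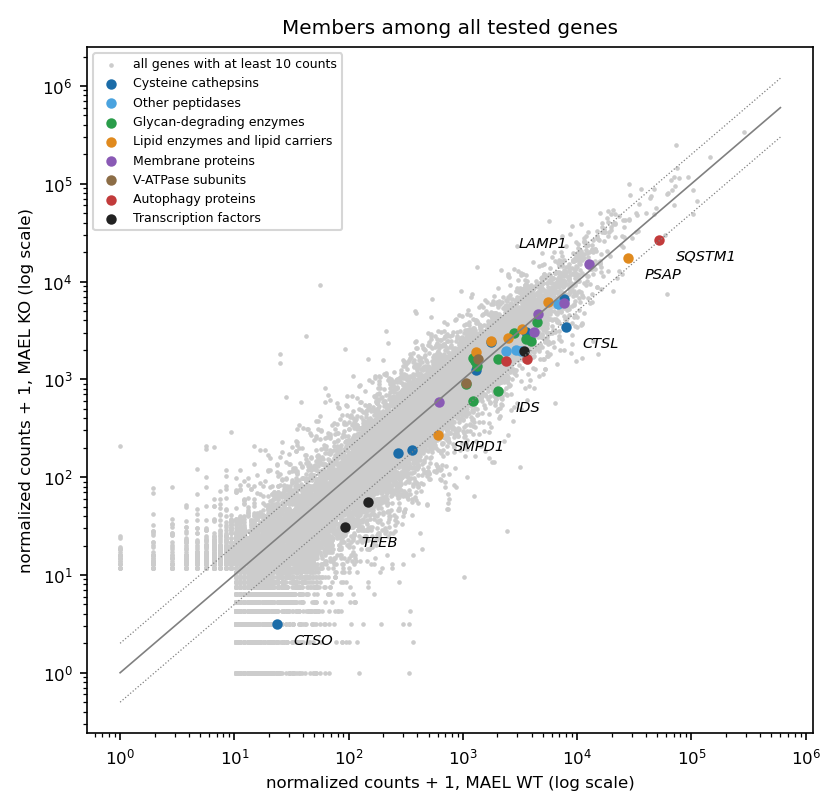
Normalized counts with 1 added in MAEL WT (x axis) and MAEL KO (y axis), both on log scales, for the 17887 tested genes (grey) and the 43 genes coloured by role. The solid line marks equal levels and the dotted lines a factor of 2, and of the 43 genes 8 lie below the lower dotted line and none above the upper one.

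Levels per length are given by the deposited FPKM values. PSAP and SQSTM1 led in both libraries, at 422 and 263 FPKM and at 332 and 170 FPKM. Both together made up 36.7% of the summed FPKM of the 43 genes in MAEL WT and 28.8% in MAEL KO. CTSL held rank 3 in MAEL WT, at 166 FPKM, and rank 5 in MAEL KO, at 71.1 FPKM, whereas LAMP1 held rank 5, at 108 FPKM, and rank 3, at 128 FPKM. The median of the 43 genes was 26.1 and 22.3 FPKM, and 33 and 29 of them reached 10 FPKM. TFEB, CTSO and MITF were the lowest in both libraries.

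**Figure D4:**
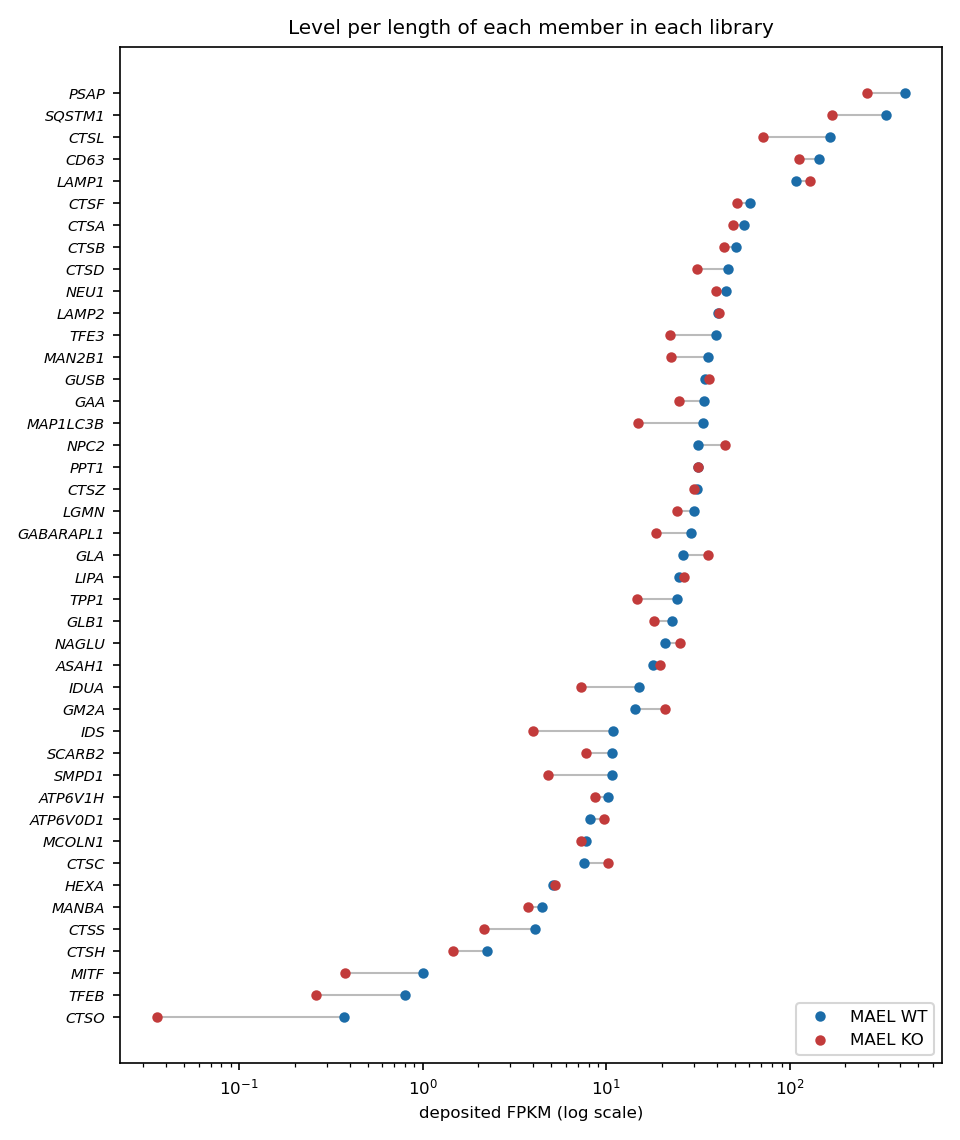
Deposited FPKM (x axis, log scale) of the 43 genes (y axis, in order of MAEL WT) in MAEL WT (blue) and MAEL KO (red), 1 library each. PSAP and SQSTM1 stand at the top and TFEB and CTSO at the bottom, and the red point lies to the left of the blue one for most genes.

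A further 186 listed genes of the lysosome, its sorting routes, TFEB control and autophagy were examined beside the 43. Of these, 177 passed the filter, with 109 below and 68 above 0 and a median of -0.15. Of all tested genes 52.0% were below 0 and 48.0% above, and with total counts 65.4% were below. Below -1 were 12 of them and above 1 were 7, beside 16.5% and 10.2% of all genes.

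The 25 tested other membrane proteins and transporters were the lowest of these lists, with a median of -0.38. Of them 21 were below 0, beside 52.0% of all genes. LAMP3, an inducible relative of LAMP1, had 799 and 43 counts, a log2 fold change of -3.98 (-4.48 to -3.56). NPC1, the cholesterol exporter, had 7384 and 3499 counts, a log2 fold change of -0.87 (-0.93 to -0.81), so that the partners NPC1 and NPC2 lay on opposite sides of 0. The 4 genes above 0 included TPCN2, at 0.59 (0.45 to 0.74), and LAPTM4B, at 0.48 (0.41 to 0.55). Among 35 other hydrolases the median was -0.13 with 20 below 0, or 29 with total counts, beside 52.0% and 65.4% of all genes. GALC, the galactosylceramidase, had 109 and 6 counts, a log2 fold change of -3.78 (-5.45 to -2.80). The 15 hydrolases above 0 included CTSV, given above, at 1.14, and NAAA, at 0.90 (0.43 to 1.39), with 61 and 99 counts.

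Of the 20 other V-ATPase subunits 14 were below 0, or 17 with total counts, beside 52.0% and 65.4% of all genes. Their median was -0.19. ATP6V0D2, a tissue-restricted form of the subunit that ATP6V0D1 encodes in most cells, had 321 and 11 counts, a log2 fold change of -4.54 (-5.67 to -3.80). ATP6AP1, an accessory subunit, had 8799 and 4745 counts, a log2 fold change of -0.68. At the other end ATP6V0C was at 0.76 (0.38 to 1.15), with 96 and 141 counts, and ATP6V1C1 at 0.53 (0.44 to 0.61). The 13 genes of sorting to the lysosome had the only median above 0, at 0.21, with 8 above and 5 below. With total counts that median lay at -0.07, with 5 above and 8 below. Of all genes 52.0% were below 0, or 65.4% with total counts. IGF2R, the large mannose 6-phosphate receptor, had 19907 and 11913 counts, a log2 fold change of -0.53, while GNPTAB, which makes the mannose 6-phosphate tag, was at 0.46 (0.31 to 0.61).

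The 33 genes of TFEB control and mTORC1 signalling had a median of -0.09. There were 18 below and 15 above 0, or 24 and 9 with total counts. Of all genes 52.0% were below 0, or 65.4% with total counts. SESN2, a leucine sensor that is induced by stress, had 3476 and 464 counts, a log2 fold change of -2.69 (-2.84 to -2.55). DDIT4, an inhibitor of mTORC1 that is also induced by stress, had 7417 and 2398 counts, a log2 fold change of -1.42 (-1.49 to -1.35). SESN1, a paralog of SESN2 known as a p53 target, had 165 and 371 counts, a log2 fold change of 1.37 (1.11 to 1.65), and LAMTOR1, the membrane anchor of the Ragulator complex, was at 0.60 (0.49 to 0.70).

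The 51 genes of the autophagy machinery had a median of -0.17, with 31 below and 20 above 0, or 36 and 15 with total counts. Of all genes 52.0% were below 0, or 65.4% with total counts. ULK1, the kinase that starts autophagy, had 3555 and 1219 counts, a log2 fold change of -1.33 (-1.43 to -1.24). ATG9B, a lipid scramblase, had 90 and 3 counts, a log2 fold change of -4.33 (-7.00 to -3.10). That value rests on very few reads in MAEL KO, and with 5 added to the counts it was -3.43. Cargo receptors lay on both sides of 0. CALCOCO2 and OPTN, which bind ubiquitinated cargo such as mitochondria, lay below it like SQSTM1, at -0.65 (-0.74 to -0.57) and -0.64 (-0.74 to -0.55). NBR1 and TAX1BP1, further cargo receptors of this list, did not, at 0.09 (0.015 to 0.17) and 0.03 (-0.03 to 0.10). The mitophagy receptors BNIP3 and BNIP3L and the ferritin receptor NCOA4 were higher. BNIP3 had 2117 and 5527 counts, a log2 fold change of 1.59 (1.52 to 1.67). BNIP3L had 783 and 1940 counts, a log2 fold change of 1.52 (1.40 to 1.64), and NCOA4 had 1910 and 3987 counts, a log2 fold change of 1.27 (1.19 to 1.35).

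**Figure D5:**
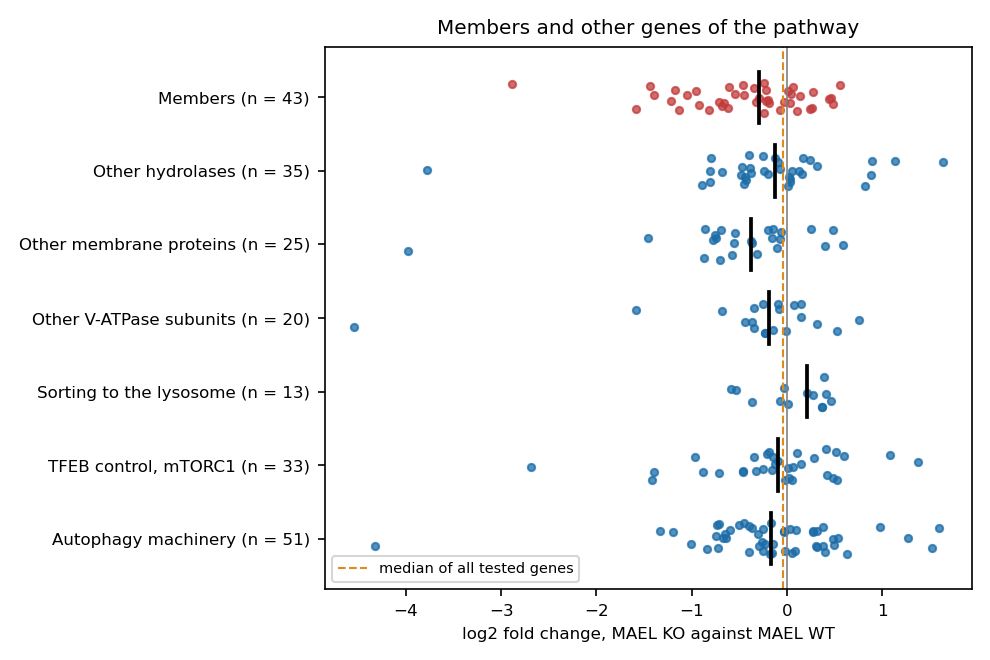
Log2 ratio of MAEL KO to MAEL WT (x axis) for the 43 genes (red) and 6 lists of other genes of the pathway (blue), with the number tested in brackets. Each point is a gene, black bars are list medians and the dashed line is the median of all tested genes, and the medians run from -0.38 for other membrane proteins to 0.21 for sorting to the lysosome, the latter at -0.07 with total counts.

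Some members share their position with other genes that had at least 10 counts. SQSTM1 overlaps MGAT4B (5493 and 5163 counts) and MRNIP (2290 and 1103 counts) on the opposite strand, MAP1LC3B overlaps FBXO31 (854 and 725 counts) and CTSA overlaps PLTP (156 and 26 counts). The deposited extent of LIPA reaches over IFIT1 (203 and 55 counts), IFIT2 and IFIT3 on the opposite strand. GM2A overlaps CCDC69 (110 and 148 counts), NPC2 overlaps ISCA2 (418 and 474 counts) and PPT1 overlaps CAP1 (2404 and 3080 counts), all on the opposite strand. How far reads were shared was not tested. The genes with a start within 1 Mb had medians of 0.05 at SQSTM1, -0.05 at MAP1LC3B, -0.19 at CTSL, -0.14 at TFEB, -0.27 at TFE3 and 0.38 at MITF, each nearer to 0, or on its other side, than the member itself. At some other members the median lay close to the member, as at PSAP above, at GAA (-0.37 beside -0.45) and at CTSB (-0.18 beside -0.22). At ATP6V1H the 5 genes nearby had a median of -0.78, lower than the member at -0.22.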

How the data were processed

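Total RNA of 1 MAEL WT and 1 MAEL KO sample went to Illumina HiSeq sequencing. The deposited counts are whole-number reads per gene without normalization, and the deposited FPKM values divide them by gene length and by library sizes that were 1.0989 and 0.91 times the totals. The submitters' processing notes name HISAT2 2.0.5, featureCounts 1.5.0-p3 and hg19, but 58690 of 58735 genes carry the coordinates of GENCODE 29 on GRCh38, all 43 members included. The strand setting is not given in the sources used here.

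Counts were scaled by TMM in edgeR 4.0.16 (R 4.3.3), with DESeq2 1.42.0 for other size factors. Fold changes of genes with at least 10 counts in a library were computed with 1 added, in Python 3.11.15, SciPy 1.17.1 and pandas 2.3.3. The code was also run on simulated counts with known changes. Those counts held counting error alone and few changed genes, so they do not show how scaling or intervals perform in these libraries. No test across genes was run. Intervals and floors (3 counts, 0.151 and 0.144 CPM) hold the counting error of reads alone. The spread between samples could not be measured with 1 library per condition, and PCR copies of a molecule could not be recognized. Alternatives were other scalings, prior counts and filters. Members, lists and thresholds were chosen with earlier results of these data known. Values are given in full for members past 1 or -1, for transcription factors and autophagy proteins and for ends of role groups. Beside them stand up to 3 genes at each end of other lists and some of the genes that overlap a named member. Values given beyond these were chosen after they were seen.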

Additional observations from a re-analysis of the deposited data

How the results depend on the processing

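No paired analysis was possible because each condition has 1 library, and for the same reason no library could be left out. With total counts the all-gene median was -0.31 in place of -0.04, 5 members in place of 13 were above 0, and the medians were -0.40 for other hydrolases, -0.46 for other V-ATPase subunits, -0.37 for TFEB control and mTORC1 and -0.45 for the autophagy machinery. The median of the members minus that of all genes was -0.26 with TMM and -0.26 with total counts. The medians of the lipid enzymes (-0.17) and of sorting to the lysosome (-0.07) turned negative. So did 8 members, namely ASAH1 (-0.14), LIPA (-0.17), LAMP1 (-0.029) and ATP6V0D1 (-0.017), whose counting intervals lay above 0, and GUSB (-0.21), HEXA (-0.24), LAMP2 (-0.24) and PPT1 (-0.27), whose intervals included it. PPT1 was also negative with TMM from protein-coding genes (-0.024). No member was past -2, in place of 1, with 5 added to the counts (0) or among genes with at least 100 counts (0), where TFEB, with 99 counts, and CTSO drop out and the median of all genes was 0.067. Of 622 values of single genes under the alternatives, 9 had another sign than with TMM. Depth limits CTSO, TFEB and MITF most.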
